A study of Mus musculus with 45 samples.

Results

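Macrophages are commonly sorted by a small set of activation genes, and the 10 examined here were Nos2, Arg1, Mrc1, Chil3, Retnla, Cd163, Mgl2, Clec10a, Folr2 and Adgre1. They were taken by symbol from both deposited expression tables, where they are 10 of the 47729 genes listed in each. The tables hold log2 FPKM (fragment counts scaled for transcript length and library size) of bulk RNA from 45 CT26 tumours, each grown under the skin of a BALB/c mouse. All mice, vehicle controls included, carried human PD-1 and human TIGIT as knock-in genes (HuGEMM), so that antibodies to the human proteins could bind. CT26 is a mouse colon carcinoma line, and the labels call the cell type an undifferentiated colon carcinoma cell.

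Tumours were allowed to reach 90 to 100 mm3 before treatment began on day 8, and saline vehicle or antibody was then given into the peritoneum 2 times a week. Serplulimab and pembrolizumab are antibodies to PD-1, an inhibitory receptor of T cells, and HLX53 and tiragolumab were the TIGIT antibodies, TIGIT being an inhibitory receptor of T cells and natural killer cells. Experiment T2106 had 6 groups, namely vehicle, serplulimab at 10 mg/kg, HLX53 at 10 mg/kg, pembrolizumab with tiragolumab at 10 mg/kg each, and serplulimab at 10 mg/kg with HLX53 at either 5 or 10 mg/kg. Experiment T2215 had 9 groups, namely vehicle, each of the 4 antibodies alone and the 4 pairs of 1 PD-1 with 1 TIGIT antibody, all at 10 mg/kg. Each group held 3 tumours. The labels do not say more of how the replicates were made, so p-values measure the spread between these tumours only. The mice have their own immune system, every tumour came from 1 cell line, and the labels used here do not give the mice's age.

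Background on the genes comes first. Macrophages exposed to interferon-gamma and bacterial products express inducible nitric oxide synthase (Nos2), which turns arginine into nitric oxide and citrulline. Macrophages exposed to interleukin-4 or interleukin-13, acting through the receptor chain Il4ra and the transcription factor Stat6, express arginase 1 (Arg1), which splits arginine into ornithine and urea, together with the secreted proteins Chil3 (Ym1) and Retnla (Fizz1, RELM-alpha) and the lectin receptors Mrc1 (CD206), Mgl2 (CD301b) and Clec10a (CD301a). Cd163, a scavenger receptor for haemoglobin bound to haptoglobin, Folr2, a folate receptor, and Adgre1 (F4/80), a surface receptor of most mouse macrophages, mark macrophages more broadly, and the first of these together with Folr2 and Mrc1 is typical of macrophages resident in tissue. None of the genes is restricted to macrophages: Arg1 and Nos2 are also made by other myeloid cells, and in bulk tumour RNA fewer cells of a type and less RNA per cell cannot be told apart.

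The promoters of the Stat6 target gene Retnla and of Mrc1 are printed because these genes stand for the interleukin-4 response and Retnla had the largest change of the 10 in the main comparison below. They are RefSeq sequence of the GRCm38.p6 build, 5′ to 3′ on the strand of the gene, and cover at most the 250 bases before the RefSeq start, ending before the earliest annotated start. Capitals mark every match, on either strand, to TTC and GAA parted by 4 bases (Stat6 spacing), to TTGCNNAA (C/EBP, N being any base) and to GAGGAA (PU.1), whose reverse complement is TTCCTC; no match overlapped another. Retnla lies at chr16:48842359-48842550 on the plus strand and Mrc1 at chr2:14229164-14229391 on the plus strand.
Retnla: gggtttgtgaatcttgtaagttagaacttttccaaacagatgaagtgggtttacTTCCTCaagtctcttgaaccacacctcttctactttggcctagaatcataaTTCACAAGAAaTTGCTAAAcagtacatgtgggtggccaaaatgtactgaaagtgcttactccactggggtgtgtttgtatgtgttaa
Mrc1: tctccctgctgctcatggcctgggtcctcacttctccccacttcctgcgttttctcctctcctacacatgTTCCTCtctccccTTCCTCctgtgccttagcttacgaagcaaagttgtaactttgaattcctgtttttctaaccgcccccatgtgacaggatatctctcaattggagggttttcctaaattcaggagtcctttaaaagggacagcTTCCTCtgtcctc
Retnla held the match TTCACAAGAA at bases −145 to −136 from its RefSeq start, TTGCTAAA at −134 to −127 and TTCCTC at −196 to −191. Mrc1 held 3 copies of TTCCTC. Over 32536 RefSeq promoters of the same 250-base window, 5.89% held the 4-base spacing, 9.57% TTGCNNAA and 23.4% GAGGAA. A match describes the letters of the window and is no evidence of binding. RefSeq promoters were matched for 6 of the 10 genes. Among these only Retnla held the Stat6 spacing, and Chil3, Mrc1, Mgl2, Cd163 and Folr2 did not.

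In GENCODE M21 (GRCm38), Nos2 spans chr11:78920787-78960254, Arg1 chr10:24915221-24927484, Mrc1 chr2:14229392-14332057, Chil3 chr3:106147554-106167564, Retnla chr16:48842551-48844461, Cd163 chr6:124304656-124330527, Folr2 chr7:101839988-101857194 and Adgre1 chr17:57358691-57483527. Mgl2 at chr11:70130329-70137550 and Clec10a at chr11:70156197-70170834 are neighbouring paralogs on chromosome 11, 18646 bases apart. Values of Mgl2 and Clec10a, of Chil3 and its relative Chil4, and of Retnla and its relatives can be split or shared by the counting of near-identical reads and are uncertain to that extent. Mir511 lies within Mrc1, and Gm10602 and a pseudogene overlap Folr2 on the other strand, so reads of these could not be told apart if strand was not used.

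The number of reads behind each value is unknown, because the files give FPKM without counts. Of the epithelial genes that should mark a colon carcinoma, Krt18 was present in every tumour (8.52 to 40.8 FPKM in T2106 and 4.49 to 42.7 in T2215). The other 4 were low in some tumours: in T2106 Krt8 had 0.0163 to 40.4 FPKM, Krt19 0.0841 to 43.5, Epcam 0.0515 to 10.2 and Cdh1 0.294 to 4.55, and in T2215 their lowest values were 0.200, 0.0437, 0.00991 and 0.212. The intestinal genes Cdx2 and Vil1 did not exceed 0.638 and 0.138 FPKM. Adipocyte genes stood at very different levels between libraries. The summed FPKM of 13 adipocyte genes was 79.9 to 462 in the T2106 vehicle tumours and 2072 to 2335 in the tumours given serplulimab with HLX53 at 10 mg/kg, and among the other T2106 tumours replicate 2 of serplulimab with HLX53 at 5 mg/kg came close to the latter, with a mean log2 adipocyte level of 5.82 against 5.80, 5.60 and 5.91. The same replicate 2 also had muscle genes. In T2215 the adipocyte sum ran from 75.8 to 4593.

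The 10 genes differed widely in level. Arg1 was the most abundant on the FPKM scale, which allows for gene length, at 10.6 to 747 with a median of 184 in T2106 and 17.4 to 492 with a median of 124 in T2215. Nos2 ran from 1.84 to 79.6 with a median of 24.6 in T2106 and from 1.51 to 93.1 with a median of 7.13 in T2215. Arg1 exceeded Nos2 in all 45 tumours, being 2.72 to 29.0 times as high in T2106 and 2.76 to 110.4 times in T2215.

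Among the receptors, Mrc1 had a median of 39.1 and 60.5 FPKM in the 2 experiments, Folr2 34.7 and 53.5, and Adgre1 25.9 and 29.2. The lectins Mgl2 and Clec10a and the scavenger receptor Cd163 were lower, with medians of 2.32, 4.38 and 1.72 in T2106. Chil3 was low in most tumours (median 0.385 in T2106), and it reached 0.5 FPKM in 6 of 18 tumours there and in 19 of 27 in T2215. Retnla had the widest range, from effectively 0 in 1 HLX53 tumour of each experiment to 88.0 in T2106 and 440.2 in T2215, and it reached 0.5 FPKM in 10 of 18 and 21 of 27 tumours. All 10 genes passed the filter on low values, 0.5 FPKM in at least 3 tumours of an experiment, in both experiments. For Chil3 and Retnla in T2106 that filter was passed with the help of the groups in which they were high.

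**Figure D1:**
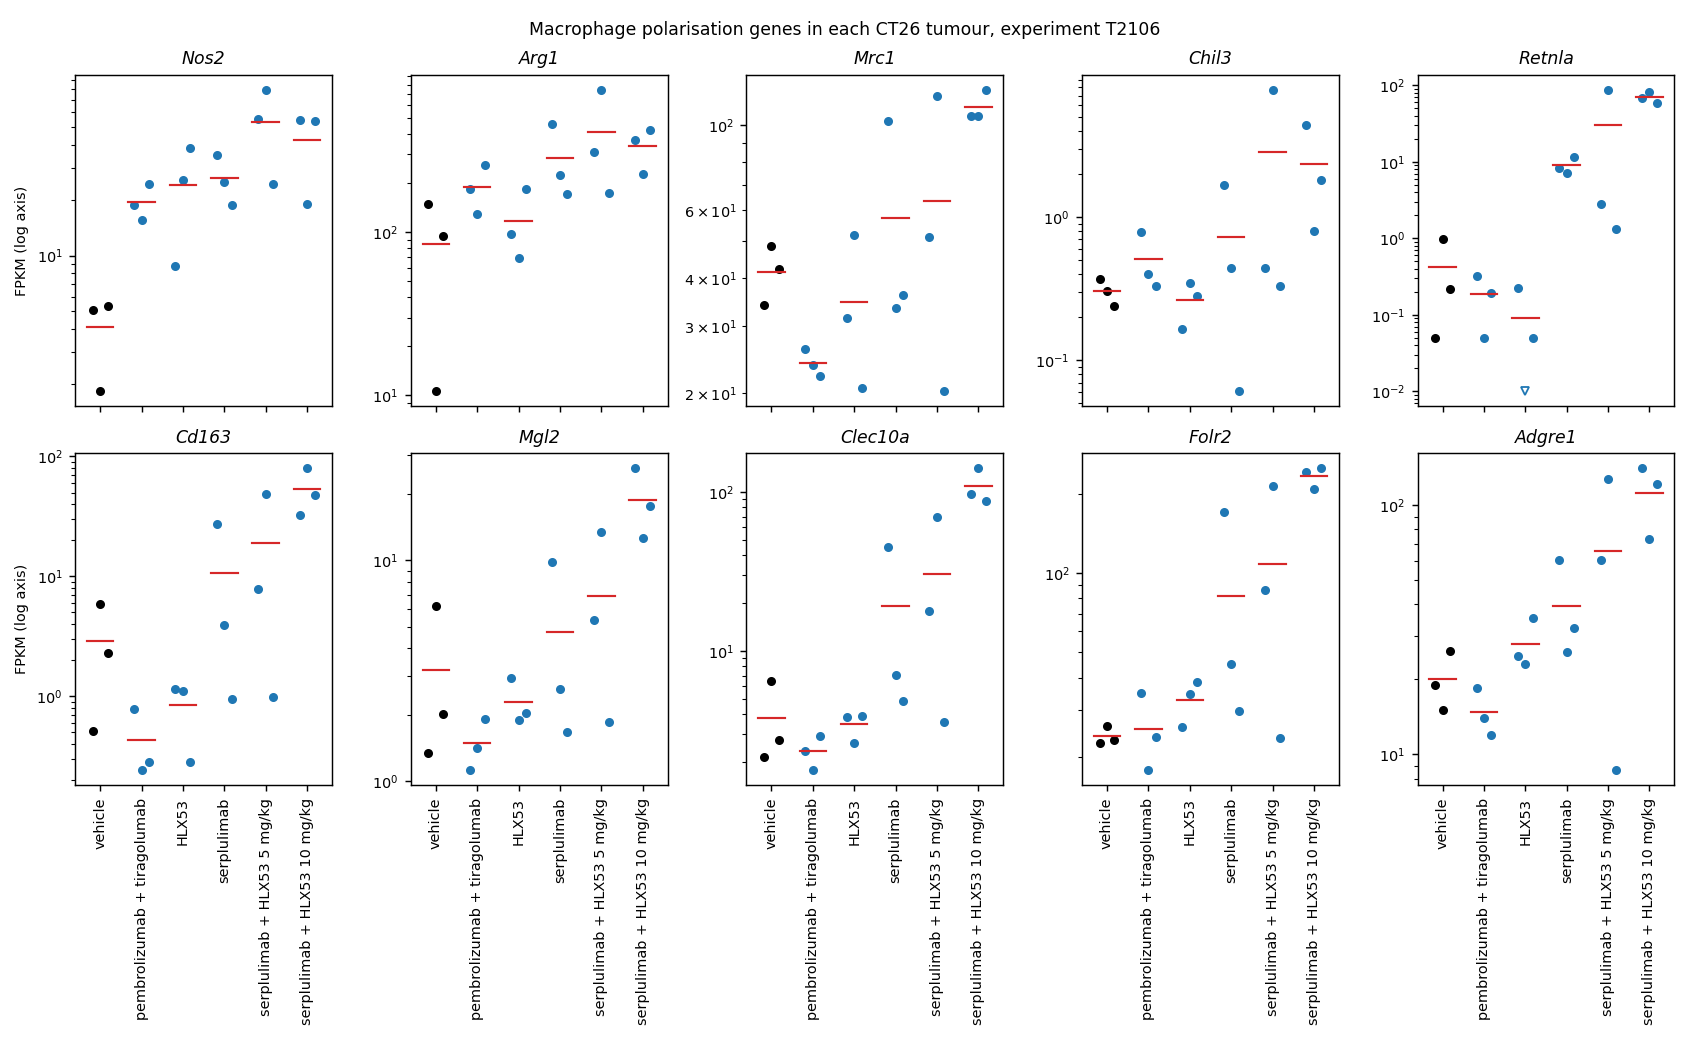
FPKM (log axis) of the 10 genes in the 18 tumours of T2106, by treatment group. Black points are vehicle tumours, blue points treated tumours, the red line is the group mean and an open triangle at 0.01 is a value below 0.01. All 3 tumours given serplulimab with HLX53 at 10 mg/kg lie above all 3 vehicle tumours in every panel, and replicate 2 of the 5 mg/kg group is the highest tumour for Nos2, Arg1, Chil3 and Retnla.

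The comparison of serplulimab plus HLX53 at 10 mg/kg with vehicle asked how joint PD-1 and TIGIT blockade altered the tumour. All 10 genes were higher in each of the 3 treated tumours than in any vehicle tumour, and 9 of the 10 (all but Chil3) rose at an adjusted p under 0.05 in limma. Across all genes tested in this comparison 44.0% were called, 23.4% were called higher, and 31.6% were non-overlapping and higher. The median log2 change was 2.90 over the 10 genes against −0.039 over all genes tested. Fold changes are on the log2(FPKM + 0.5) scale, which understates the change of genes of low level.

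Of the arginine-using enzymes, Nos2 had 5.09, 1.84 and 5.33 FPKM in the vehicle tumours and 54.3, 19.0 and 53.7 in the treated tumours. The lowest treated tumour was replicate 2, still above the highest vehicle tumour, and the log2 change was 3.19 ± 0.57 (limma SE, adjusted p = 0.00730). Arg1 had 148, 10.6 and 94.4 FPKM under vehicle and 366, 226 and 422 under treatment, a change of 2.60 ± 0.78 (limma adjusted p = 0.0206). Vehicle replicate 2 was far below the other vehicle tumours for both enzymes, and without it the Arg1 change was 1.46 with an adjusted p of 0.0705. Among 10 other genes of arginine and nitric oxide metabolism tested, 4 rose and 1 fell. Ass1, which rebuilds arginine from citrulline, rose by 2.98, the transporter Slc7a2 by 2.36 and the second arginase Arg2 by 2.01, while the transporter Slc7a1 changed by −1.23.

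Retnla, a secreted protein of the interleukin-4 response whose promoter is printed above, had 0.0505, 0.988 and 0.219 FPKM in the vehicle tumours and 68.9, 82.0 and 59.3 after treatment. No treated tumour came near a vehicle tumour, and the log2 change was 6.38 ± 0.96 (limma adjusted p = 0.00430), the largest of the 10 genes. In T2106 Retnla passed the filter on low values through the groups given serplulimab, where it was high. Its p-values in T2106, and its place in the counts of called genes there, are therefore no independent support. Chil3, a chitinase-like secreted protein, had 0.369, 0.304 and 0.239 FPKM under vehicle and 4.40, 0.798 and 1.80 under treatment. The groups did not overlap, replicate 2 being lowest among the treated tumours, but the change of 1.61 ± 0.72 did not pass (adjusted p = 0.0785, 95% interval 0.065 to 3.15). Without that replicate the Chil3 change was 2.07 with a limma adjusted p of 0.0442.

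The lectin receptors, which bind and take up glycoproteins, rose to different extents. Clec10a had 2.17, 6.44 and 2.78 FPKM in vehicle tumours and 97.1, 140.5 and 88.3 in treated tumours, a log2 change of 4.77 ± 0.85 (limma adjusted p = 0.00730). Its neighbour Mgl2 had 1.34, 6.22 and 2.02 against 26.2, 12.6 and 17.6, a change of 2.56 ± 0.65 (adjusted p = 0.0129). Vehicle replicate 2 was the highest vehicle tumour for both lectins, as it was the lowest for the 2 enzymes. Mrc1 had 34.0, 48.4 and 42.2 against 106, 106 and 124, the smallest change of the 10 at 1.43 ± 0.52 (adjusted p = 0.0405). The groups were separate, but the Mrc1 call was lost whichever of the 6 tumours was left out, with adjusted p between 0.0588 and 0.107.

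Cd163 had 0.511, 5.89 and 2.30 FPKM under vehicle and 32.2, 79.3 and 48.0 under treatment, a log2 change of 4.26 ± 1.13 (limma adjusted p = 0.0145). Folr2 had 22.6, 26.2 and 23.1 against 242, 208 and 249, with little spread within either group and a change of 3.25 ± 0.65 (adjusted p = 0.00866). Adgre1, the most general macrophage marker of the 10, had 19.0, 15.1 and 26.1 against 140.5, 73.0 and 122, a change of 2.43 ± 0.67 (adjusted p = 0.0162). For all 3 genes the groups were separate, with vehicle replicate 2 highest for Cd163 and Folr2 and lowest for Adgre1.

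Other macrophage genes rose in the same tumours. Of 10 core macrophage genes 9 rose, with a median log2 change of 1.72, among them the lysosomal protein Cd68 (1.75), the signalling adaptor Tyrobp (2.15), the transcription factor Spi1 (1.99) and the engulfment receptor Mertk (1.70). Csf1r, the receptor for macrophage growth factor, rose by 1.91 (limma adjusted p = 0.0252) and the complement gene C1qa by 1.53 (0.0201), whereas the growth factor Csf1 itself had −0.26 (0.238). Of 16 genes of tissue-resident macrophages 15 rose (median 2.98), including the C-type lectins Cd209b (2.18), Cd209f (4.04) and Cd209g (3.93) and the reductase Cbr2 (3.21). Of 9 monocyte genes 4 rose (median 1.36), among them Lyz2, a lysozyme, by 2.48 and the integrin Itgam by 1.28.

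Genes of both activation programmes rose. Of 22 further genes of classical activation 13 rose and none fell (median 1.15), including Tnf (1.79), the itaconate enzyme Irg1 (2.59), the costimulator Cd86 (1.76) and the formyl peptide receptor Fpr2 (2.20). Il1b rose by 2.01, but the interferon-induced chemokine Cxcl9 had 0.33 (limma adjusted p = 0.624). Of 22 further genes of alternative activation 17 rose and 1, Klf4, fell (median 1.25). The 4 with the smallest p were Cdh1 (2.25), Cd36 (3.53), Pparg (2.63) and Il1rn (2.57), of which Cd36 and Pparg are also adipocyte genes and Cdh1 is also an epithelial gene.

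Of the signals that drive the 2 states, Ifng, the T-cell and natural killer cell cytokine upstream of Nos2, rose by 1.66 (limma adjusted p = 0.0101). The interleukin-4 receptor chain Il4ra rose by 1.30 (0.0323) and the anti-inflammatory cytokine Il10 by 1.65 (0.0149). Stat6 had 0.26 (0.100), and Il13 was too low to be tested. Il4 itself had 0.00800 to 0.0773 FPKM in vehicle and 0.413 to 0.9754 in treated tumours. It is given without a test, because in T2106 it reached 0.5 FPKM only in tumours of the 2 serplulimab and HLX53 groups and so passed the filter through the groups where it was high; it is among the 22 alternative activation genes and the 17 that rose. Of 9 growth and polarising signals and receptors 5 rose and 1 fell, the alarmin Il33 rising by 3.23 and the macrophage growth factor Il34 changing by −1.25. The list's Retn, which rose by 4.95, is an adipocyte hormone in mice.

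Markers of other cells moved with these changes. All 12 adipocyte genes tested were higher (median 3.75), as were 9 of 10 fibroblast genes (2.86), 10 of 12 neutrophil genes (2.92), 10 of 12 dendritic cell genes (1.498), 8 of 10 mast cell and eosinophil genes (1.27), 3 of 5 keratinocyte genes (1.14) and 2 of 11 T-cell genes (1.29), and none of 2 muscle genes, while all 12 cell-cycle genes were lower (−1.01). The summed FPKM of the core macrophage list was 1112 to 1541 in vehicle tumours against 3097 to 5793, of the neutrophil list 25.4 to 41.5 against 421 to 1555 with Camp at 0 in every vehicle tumour, and of the fibroblast list 453 to 721 against 3350.2 to 5148. With the adipocyte score or the core macrophage score of each tumour added to the model, none of the 10 genes was called in limma, and the estimates of Mrc1 (−0.26 and −0.24) and Chil3 (−0.45 and −0.63) turned negative. Treated and vehicle tumours did not overlap in either score. Beyond those fits, the part of these other cells in the rise of the 10 genes was not tested.

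The calls also depended on single tumours. Without replicate 1, or without replicate 3, of the treated group, 4 of the 10 genes (Nos2, Retnla, Clec10a and Folr2) were still called by limma, and the adjusted p of the other 5 lay between 0.0519 and 0.107. Mrc1 was lost in all 6 such refits, Arg1 also without vehicle replicate 2 (adjusted p = 0.0705) and Cd163 also without vehicle replicate 1 (0.0531). Without a filter on low values, which tests more genes, 5 of the 10 were called. The shares of all genes called in these refits are not given here, so the counts cannot be set against them.

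The same treated tumours were set against the other antibody groups, which asks what the pair added to each. Against HLX53 alone at 10 mg/kg, 7 of the 10 genes were higher (all genes called 26.8%, called higher 18.1%): Mrc1, Retnla, Cd163, Mgl2, Clec10a, Folr2 and Adgre1. Retnla had 0.223, effectively 0 and 0.0491 FPKM in the HLX53 tumours, a log2 difference of 6.91 ± 0.96 (limma adjusted p = 0.00305), under the same limit of the filter as above. Clec10a had 3.86, 2.65 and 3.90 (difference 4.77 ± 0.85, adjusted p = 0.00749) and Cd163 had 1.15, 1.11 and 0.285 (5.30 ± 1.13, 0.0130). All HLX53 tumours were low for these 3 genes, and 9 of the 10 genes, all but Nos2, were non-overlapping and higher in the pair (all genes 29.9%). Nos2 was the exception, with 8.75, 25.7 and 38.1 under HLX53 overlapping the 54.3, 19.0 and 53.7 of the pair (difference 0.88 ± 0.57, 95% interval −0.34 to 2.09, adjusted p = 0.222), and Arg1 did not pass either (1.59 ± 0.78, 0.118).

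Leaving out 1 tumour moved the count of 7 to 4 without HLX53 replicate 1, to 3 without HLX53 replicate 2, and to 2 without replicate 1 or without replicate 3 of the pair; without a filter on low values it was 3. The calls of Mrc1 and Adgre1 were each lost in 5 of the 6 refits. The share of all genes called in each refit is not given here, so these counts are no result particular to these genes. Of the lists, 14 of 16 resident macrophage and 8 of 10 core macrophage genes were higher than under HLX53, but 1 of 22 classical activation genes was, against 9 of 22 alternative activation genes. The adipocyte list (12 of 12 higher) moved with them, the HLX53 tumours having summed levels of 109 to 115 FPKM with Cidea and Lep at 0. Its part was not tested beyond the covariate fit, in which none of the 10 was called and Mrc1, Chil3, Cd163, Mgl2, Folr2 and Adgre1 turned negative. With the macrophage score Nos2 and Chil3 did. HLX53 tumours and those of the pair did not overlap in either score, so these fits cannot tell treatment from score.

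Pembrolizumab with tiragolumab was the other PD-1 and TIGIT pair at the same doses. Compared with it, serplulimab with HLX53 at 10 mg/kg had 7 of the 10 genes higher, again Mrc1, Retnla, Cd163, Mgl2, Clec10a, Folr2 and Adgre1, in a comparison that shares the treated tumours (all genes called 42.6%, called higher 25.8%, and 8 of the 10 non-overlapping and higher against 34.4% of all genes). Clec10a had 2.34, 1.78 and 2.93 FPKM under pembrolizumab with tiragolumab, a log2 difference of 5.25 ± 0.85 (limma adjusted p = 0.00500). Mgl2 had 1.12, 1.41 and 1.92 (3.24 ± 0.65, 0.00684) and Folr2 34.9, 17.8 and 23.8 (3.21 ± 0.65, 0.00687), all below every tumour of the serplulimab pair. Nos2 at 18.8, 15.5 and 24.6 and Arg1 at 184, 129.97 and 257 were not separated from it, with differences of 0.97 ± 0.57 (95% interval −0.25 to 2.18) and 0.83 ± 0.78 (−0.84 to 2.51), and Chil3 had a difference of 1.31 ± 0.72 (adjusted p = 0.144). The 7 calls held when any 1 tumour was left out, but none held with either score in the model, where the estimate of Chil3 was below 0 with both scores, that of Mrc1 with the adipocyte score and those of Nos2 and Arg1 with the macrophage score. Here 9 of 10 core macrophage, all 16 resident macrophage, all 12 adipocyte and all 11 T-cell genes were higher as well, with 9 of 22 classical and 14 of 22 alternative activation genes. The groups did not overlap in either score. Under pembrolizumab with tiragolumab the adipocyte score was 0.67, 0.64 and 0.67, against 5.80, 5.60 and 5.91 in the serplulimab pair. The core macrophage score was 5.86, 5.70 and 5.31 against 8.19, 7.23 and 7.85. Those fits therefore cannot tell treatment from score, and the part of the other cell types was not tested further.

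Against serplulimab alone none of the 10 genes passed in limma (1.59% of all genes did). An unadjusted p under 0.05 was found for 7 of the 10 and for 5408 of the 15070 genes tested. For 7 of the 10 the groups were non-overlapping and the pair higher (all genes 19.6%). Serplulimab tumours ranged widely, with replicate 1 high: Clec10a had 45.3, 7.04 and 4.85 FPKM, a log2 difference of 3.12 ± 0.85 (adjusted p = 0.0648). Retnla at 8.43, 7.21 and 11.7 was above all vehicle tumours and below all of the pair, a difference of 2.89 ± 0.96 (0.0797), and Mgl2 had a difference of 2.17 ± 0.65 (0.0703). Without serplulimab replicate 1, 5 of the 10 genes were called, and 8 were when replicate 2 of the 5 mg/kg pair, the T2106 library with muscle genes, was left out of the shared fit. Shares of all genes called in these refits are not given here. Adipocyte scores (the mean log2(FPKM + 0.5) of the list) did not overlap between these groups either, at 3.38, 2.65 and 1.89 under serplulimab against 5.80, 5.60 and 5.91 in the pair, with summed levels of 119 to 416 against 2072 to 2335 FPKM. Their part in the differences was not tested. A fit with the adipocyte score in the model called none of the 10, but the main fit had called none either, so it cannot decide this. Over the alternatives the Retnla difference ran from 0.16 to 2.95 and that of Clec10a from 0.60 to 3.19.

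Between the 10 and 5 mg/kg doses of HLX53, each with serplulimab, none of the 10 genes passed in limma (0.139% of all genes did). Of the 10, 6 had an unadjusted p under 0.05, against 1653 of 15070 genes, and Clec10a alone did not overlap (all genes 5.32%). Clec10a had 17.8, 70.0 and 3.59 at 5 mg/kg (difference 2.62 ± 0.85, adjusted p = 0.313) and Retnla 2.84, 88.0 and 1.31 (3.11 ± 0.96, 0.293). Replicate 2 of the 5 mg/kg group lay within or above the range of the 10 mg/kg tumours for 9 of the 10 genes, all but Clec10a, whereas replicate 3 lay within or below the vehicle range for Mrc1, Cd163, Mgl2, Clec10a, Folr2 and Adgre1. Without replicate 2, 8 of the 10 genes differed between the doses at an adjusted p under 0.05. The share of all genes called in that refit is not given here, so the count is no result particular to these genes. Replicate 2 had the highest adipocyte and fibroblast scores of its group: replicates 1 and 3 had adipocyte scores of 3.28 and 0.78 against 5.80, 5.60 and 5.91 at 10 mg/kg, and fibroblast scores of 5.50 and 4.25 against 7.42, 6.93 and 7.38. The part of these markers in the dose difference was not tested. A fit with the adipocyte score in the model called none of the 10, but the main fit had called none either, so it cannot decide this. Over the alternatives the Retnla difference ran from 0.94 to 4.83 and that of Clec10a from 0.63 to 3.63.

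Against vehicle, serplulimab with HLX53 at 5 mg/kg had 1 of the 10 genes called, Nos2 (1.02% of all genes, 0.352% higher). The unadjusted limma p was under 0.05 for 5 of the 10, against 4331 of 15070 genes. Nos2, Arg1 and Retnla were non-overlapping and higher (all genes 5.84%). Nos2 had 55.3, 79.6 and 24.6 FPKM, a log2 change of 3.51 ± 0.57 (limma adjusted p = 0.0193). Arg1 at 308, 747 and 175 had 2.67 ± 0.78 (0.0781) and Retnla 3.28 ± 0.96 (0.0782). The Nos2 call was lost without vehicle replicate 2, vehicle replicate 3 or treated replicate 2, without a filter on low values, or with only the groups compared fitted (count 0). In contrast, 2 genes were called without treated replicate 1 and 7 without replicate 3, the shares of all genes in these refits not being given here. Of the other lists, 3 of 12 neutrophil and 2 of 22 classical activation genes were higher, and no gene of the core or resident macrophage lists.

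Nos2 was the only one of the 10 genes for which all 15 treated T2106 tumours lay above all 3 vehicle tumours, a pattern shared by 0.723% of all genes. In the single-antibody groups and the pembrolizumab pair no gene of the 10 was called against vehicle in limma (all genes 0.00% for serplulimab, 0.00664% for HLX53 and 0.00% for pembrolizumab with tiragolumab). In the same order, 3, 1 and 2 of the 10 had an unadjusted p under 0.05, against 1280, 582 and 774 of 15070 genes. Serplulimab tumours lay above all vehicle tumours for Nos2, Arg1, Retnla and Folr2 (all genes 6.24%), HLX53 tumours for Nos2 alone (5.33%) and those of the pembrolizumab pair also for Nos2 alone (7.41%), with Mrc1 below vehicle in the last (16.4% lower). Nos2 had 34.9, 25.0 and 18.8 FPKM under serplulimab, a log2 change of 2.61 ± 0.57 (adjusted p = 0.471). Under HLX53 the change was 2.31 ± 0.57 (0.951), and under pembrolizumab with tiragolumab 2.22 ± 0.57 (0.858). With replicate 2 of the 5 mg/kg pair left out of the shared fit, 1 of the 10 genes was called for serplulimab. The share of all genes in that refit is not given here. These comparisons share the vehicle tumours.

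Ordered by group mean in T2106, Nos2 went from vehicle (4.09 ± 1.95 FPKM, SD, n = 3) over pembrolizumab with tiragolumab (19.6 ± 4.57) to serplulimab with HLX53 at 5 mg/kg (53.2 ± 27.5), which was also the highest group for Arg1 and Chil3. The 10 mg/kg pair was highest for the other 7 genes. Neighbours in the order overlapped except between vehicle and pembrolizumab with tiragolumab for Nos2, between vehicle and serplulimab (9.11 ± 2.31) for Retnla, and between the 5 and the 10 mg/kg pair (109 ± 27.9) for Clec10a.

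**Figure D2:**
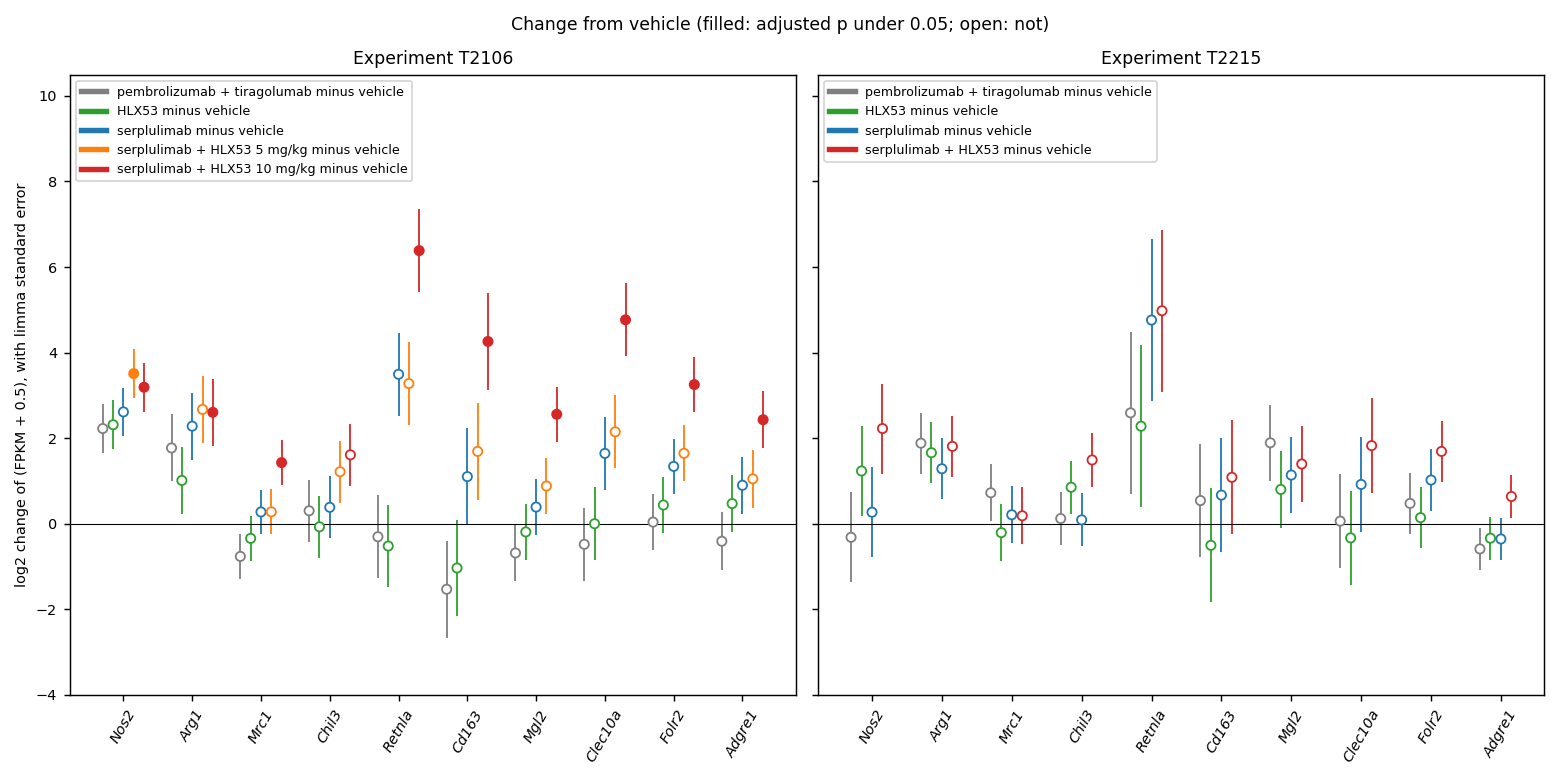
Log2 change in log2(FPKM + 0.5) from vehicle, with limma standard errors as bars, for the 10 genes in all treated groups of T2106 and some of T2215. For T2215 only pembrolizumab with tiragolumab, HLX53, serplulimab and serplulimab with HLX53 are drawn. Filled symbols have an adjusted p under 0.05; they are the 9 genes of serplulimab with HLX53 at 10 mg/kg and Nos2 of the 5 mg/kg pair in T2106, and none in T2215.

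Experiment T2215 repeated serplulimab with HLX53 at 10 mg/kg each, with other vehicle tumours and a table normalised on its own. None of the 10 genes passed in limma against vehicle (0.00% of all genes did). Of the 10, 5 had an unadjusted p under 0.05, against 2729 of 14914 genes. Nos2, Arg1, Retnla, Mgl2 and Folr2 were non-overlapping and higher (all genes 8.11%). Nos2 had 3.11, 10.7 and 7.13 FPKM under vehicle and 41.5, 24.0 and 30.1 with the pair, a log2 change of 2.22 ± 1.05 (adjusted p = 0.269). Arg1 had 17.4, 82.6 and 88.0 against 179.6, 125 and 248 (1.81 ± 0.71, 0.244), vehicle replicate 1 being low. Retnla had 3.64, 1.66 and 0.454 against 39.2, 285 and 23.0 (4.98 ± 1.90, 0.242), with replicate 2 far above the others.

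Folr2 had 58.5, 36.0 and 34.9 against 88.8, 381 and 74.5 (1.69 ± 0.72, limma adjusted p = 0.252) and Chil3 had 1.53, 0.406 and 0.192 against 3.33, 3.54 and 1.32 (1.49 ± 0.62, 0.249), overlapping by 1 vehicle tumour. Of the genes that had risen most in T2106, Cd163 at 15.3, 9.51 and 5.55 against 7.60, 120.3 and 8.82 and Clec10a at 16.4, 12.3 and 6.20 against 28.6, 159 and 13.3 overlapped here. Adgre1 at 50.2, 25.9 and 31.8 against 53.3, 101 and 29.2 and Mrc1 at 67.9, 59.0 and 53.8 against 32.04, 191 and 51.4 overlapped as well. Treated replicate 2 was the highest tumour of both groups for every one of the 10 genes but Nos2 and Arg1. Its adipocyte score of 6.72 also stood above those of replicates 1 and 3 (3.93 and 1.495) and of vehicle (4.42, 1.08 and 1.94). The part of this was not tested. A fit with that score in the model called none of the 10, but the main fit had called none either, so it cannot decide this.

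**Figure D3:**
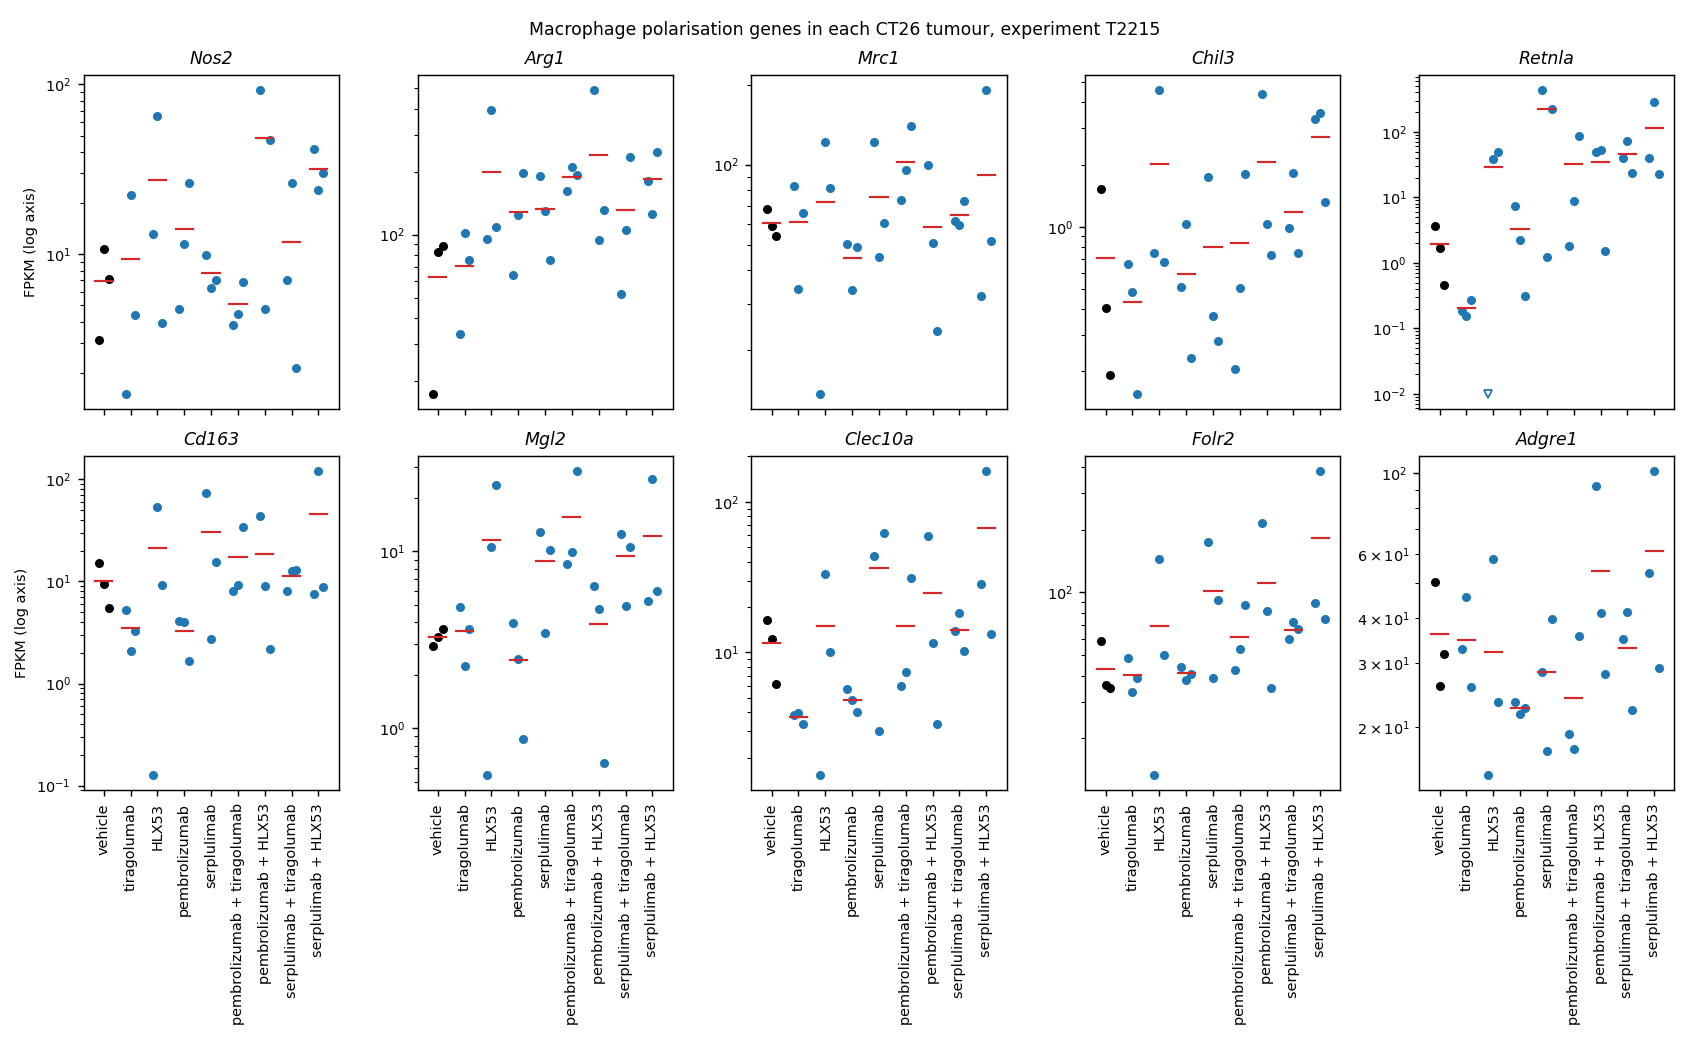
FPKM (log axis) of the 10 genes in the 27 tumours of T2215, by treatment group, drawn as for T2106. Within most groups the 3 tumours spread over a wide range, and Retnla runs from below 0.01 in 1 HLX53 tumour to 440.2 in 1 serplulimab tumour.

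The other T2215 groups were as variable. Retnla was highest by mean under serplulimab (221 ± 219 FPKM, SD, n = 3), from 440.2, 1.23 and 223 in the single tumours. Of these, replicate 1 also had the highest muscle score of the experiment (10.26). Without replicate 2, 1 of the 10 genes was called for serplulimab against vehicle, the share of all genes in that refit not being given here. In the tiragolumab group Retnla was 0.187, 0.151 and 0.270, all below every vehicle tumour. Cd163 (5.27, 2.07 and 3.28) and Clec10a (3.85, 3.99 and 3.35) were likewise non-overlapping and lower there, 3 of the 10 genes against 4.67% of all genes. Pembrolizumab alone had 4 such genes (Mrc1, Cd163, Clec10a and Adgre1) against 8.90%, Clec10a being 5.70, 4.85 and 4.01 and Adgre1 23.5, 21.8 and 22.6 against 50.2, 25.9 and 31.8 under vehicle. None of these passed in limma, as none of the 10 genes did in any of the 13 comparisons of T2215, and the adjusted calls over all genes were 0.00% for each antibody alone and for serplulimab with tiragolumab, and 0.00671% for pembrolizumab with HLX53.

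Pembrolizumab with HLX53 had the highest group means of Nos2 (48.3 ± 44.2) and Arg1 (239 ± 220.0), with 93.1, 4.75 and 47.2 and 492, 94.2 and 130.4 in the single tumours. Pembrolizumab with tiragolumab had the highest Mrc1 (103 ± 33.5) and Mgl2 (15.6 ± 11.1). Its replicate 3 stood apart, with Mrc1 at 73.5, 95.4 and 139 and Mgl2 at 8.50, 9.93 and 28.4 in the 3 tumours, an adipocyte score of 4.44 against 1.01 and 1.71, and a muscle score of 4.60 against −0.39 and −0.42. This group was low for Nos2 (3.85, 4.47 and 6.86) and high for Arg1 (161, 211 and 192), so that its ratio of Arg1 to Nos2 was 27.9 to 47.2. Against vehicle Arg1 had 1.88 ± 0.71 and Mgl2 1.89 ± 0.89 (limma adjusted p = 0.9999 for both; 0.0134% of all genes called). Without replicate 3 of the pair these were 1.86 and 1.36, and none of the 10 was called. Arg1 was non-overlapping and higher than under vehicle in 4 of the 8 treated groups: HLX53 with 95.1, 394 and 109 FPKM (all genes 2.27%), serplulimab with HLX53, pembrolizumab with HLX53 (3.40%) and pembrolizumab with tiragolumab, where Mrc1 and Mgl2 were as well (5.58%). Serplulimab with tiragolumab had Retnla at 40.0, 73.6 and 24.0, Mgl2 at 12.6, 4.92 and 10.6 and Folr2 at 59.96, 72.2 and 66.6, all above vehicle (3.35%). Nearly all neighbours in these orders overlapped, the exceptions being vehicle against the groups just below it for Retnla, Cd163 and Clec10a, and tiragolumab against pembrolizumab for Clec10a.

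Because T2215 crossed each PD-1 antibody with each TIGIT antibody, arms could be pooled, and none of the 10 genes passed in any of these 4 pooled comparisons. The difference of HLX53 arms from tiragolumab arms was 1.92 ± 0.61 for Nos2 and 0.95 ± 0.36 for Chil3 on the log2 scale (limma adjusted p = 0.155 for both). The 95% intervals were 0.65 to 3.18 and 0.20 to 1.69. In that comparison 0.00% of all genes were called. The unadjusted p was under 0.05 for 2 of the 10 and for 3964 of the 14914 genes tested. The 9 HLX53 tumours had 3.93 to 93.1 FPKM of Nos2 with a median of 30.1, and the 9 tiragolumab tumours 1.51 to 26.3 with a median of 4.47, so that the ranges overlapped.

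Between arms with and without a PD-1 antibody the log2 difference was 3.11 ± 0.95 for Retnla, 0.85 ± 0.36 for Arg1 and 0.78 ± 0.36 for Folr2 (limma adjusted p = 0.666 for all 3). These 3 had an unadjusted p under 0.05, as did 1085 of all 14914 genes tested, and 0.00% of all genes were called. Serplulimab arms less pembrolizumab arms gave 2.69 ± 1.10 for Retnla (limma adjusted p = 0.504, 95% interval 0.41 to 4.97) and 1.26 ± 0.64 for Clec10a. There 0.00% of all genes were called, and 1 of the 10 had an unadjusted p under 0.05 against 1418 of 14914 genes. Arms with a TIGIT antibody less those without gave 0.61 ± 0.31 for Chil3 (limma adjusted p = 0.753, 0.0134% of all genes called). None of the 10 had an unadjusted p under 0.05, against 987 of 14914 genes. Between the 2 matched pairs, the difference of serplulimab with HLX53 from pembrolizumab with tiragolumab was 2.54 ± 1.05 for Nos2 and 1.37 ± 0.62 for Chil3 (limma adjusted p = 0.224 and 0.228, 0.0134% of all genes called). Of the 10, 3 had an unadjusted p under 0.05, against 3180 of 14914 genes, and Nos2 alone did not overlap (all genes 10.8%). In T2106 the same contrast had been 0.97 for Nos2 and 1.31 for Chil3. The antibodies' sequences and structures are not part of the files, and the intervals do not show that they act alike.

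The 10 genes did not vary as 1 block, although most pairs were positively related. Over their 45 pairs in T2215, r ran from −0.20 to 0.92 with a median of 0.58, and the pairs named below are examples from that range. Relations were computed on log2(FPKM + 0.5) over the 27 tumours of T2215, with p from permutation and adjusted over the 150 relations computed, 1e-05 being the smallest p the permutations can give. Cd163 and Folr2 varied together (r = 0.92, p = 1e-05, adjusted 7.5e-05; rho = 0.83, p = 1e-05, adjusted 0.000115; r without the 2 outermost tumours 0.90, r within groups 0.98). So did Cd163 and Clec10a (r = 0.91, p = 1e-05, adjusted 7.5e-05; rho = 0.90, p = 1e-05, adjusted 0.000115; r without the 2 outermost tumours 0.92, r within groups 0.91). Nos2 and Arg1 were related with a smaller r (r = 0.58, p = 0.00120, adjusted 0.00340; rho = 0.46, p = 0.0183, adjusted 0.0450; r without the 2 outermost tumours 0.46, r within groups 0.59). For Nos2 and Mgl2 the relation was not significant (r = −0.20, p = 0.313, adjusted 0.347; rho = −0.15, p = 0.458, adjusted 0.541; r without the 2 outermost tumours −0.19, r within groups −0.25).

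In T2106 the 4 tumours with an adipocyte score of at least 5 stand apart, so relations were computed over the other 14. There Nos2 and Arg1 were also related (r = 0.79, p = 0.00114, adjusted 0.00329; rho = 0.68, p = 0.00963, adjusted 0.0251; r without the 2 outermost tumours 0.57, r within groups 0.70). Nos2 and Mrc1 were not (r = −0.036, p = 0.904, adjusted 0.91; rho = 0.046, p = 0.880, adjusted 0.892; r without the 2 outermost tumours −0.25, r within groups 0.20). Of the 45 pairs of the 10 genes, 19 in T2106 and 28 in T2215 had an adjusted p under 0.05, and the median r was 0.55 and 0.58. These counts rest on unlike sets, because no tumour was left out in T2215. Adipocyte scores there were also above 5 in serplulimab replicates 1 and 3 (6.66 and 5.11) and in replicate 2 of serplulimab with HLX53 (6.72).

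Marker scores, each the mean log2(FPKM + 0.5) of a list, were set beside the genes in T2215. Adgre1 followed the core macrophage score closely (r = 0.97, p = 1e-05, adjusted 7.5e-05; rho = 0.94, p = 1e-05, adjusted 0.000115; r without the 2 outermost tumours 0.94, r within groups 0.98). For Arg1 that relation was not significant (r = 0.21, p = 0.304, adjusted 0.341; rho = 0.044, p = 0.828, adjusted 0.863; r without the 2 outermost tumours 0.023, r within groups 0.15). Retnla varied with the adipocyte score (r = 0.82, p = 1e-05, adjusted 7.5e-05; rho = 0.81, p = 1e-05, adjusted 0.000115; r without the 2 outermost tumours 0.75, r within groups 0.83), and Clec10a did too (r = 0.88, p = 1e-05, adjusted 7.5e-05; rho = 0.85, p = 1e-05, adjusted 0.000115; r without the 2 outermost tumours 0.84, r within groups 0.87). Nos2 varied with the neutrophil score (r = 0.74, p = 2e-05, adjusted 0.00013; rho = 0.70, p = 5e-05, adjusted 0.000395; r without the 2 outermost tumours 0.73, r within groups 0.69). Genes and scores come from the same libraries and share their depth and tissue make-up, and what they share was not tested further.

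**Figure D4:**
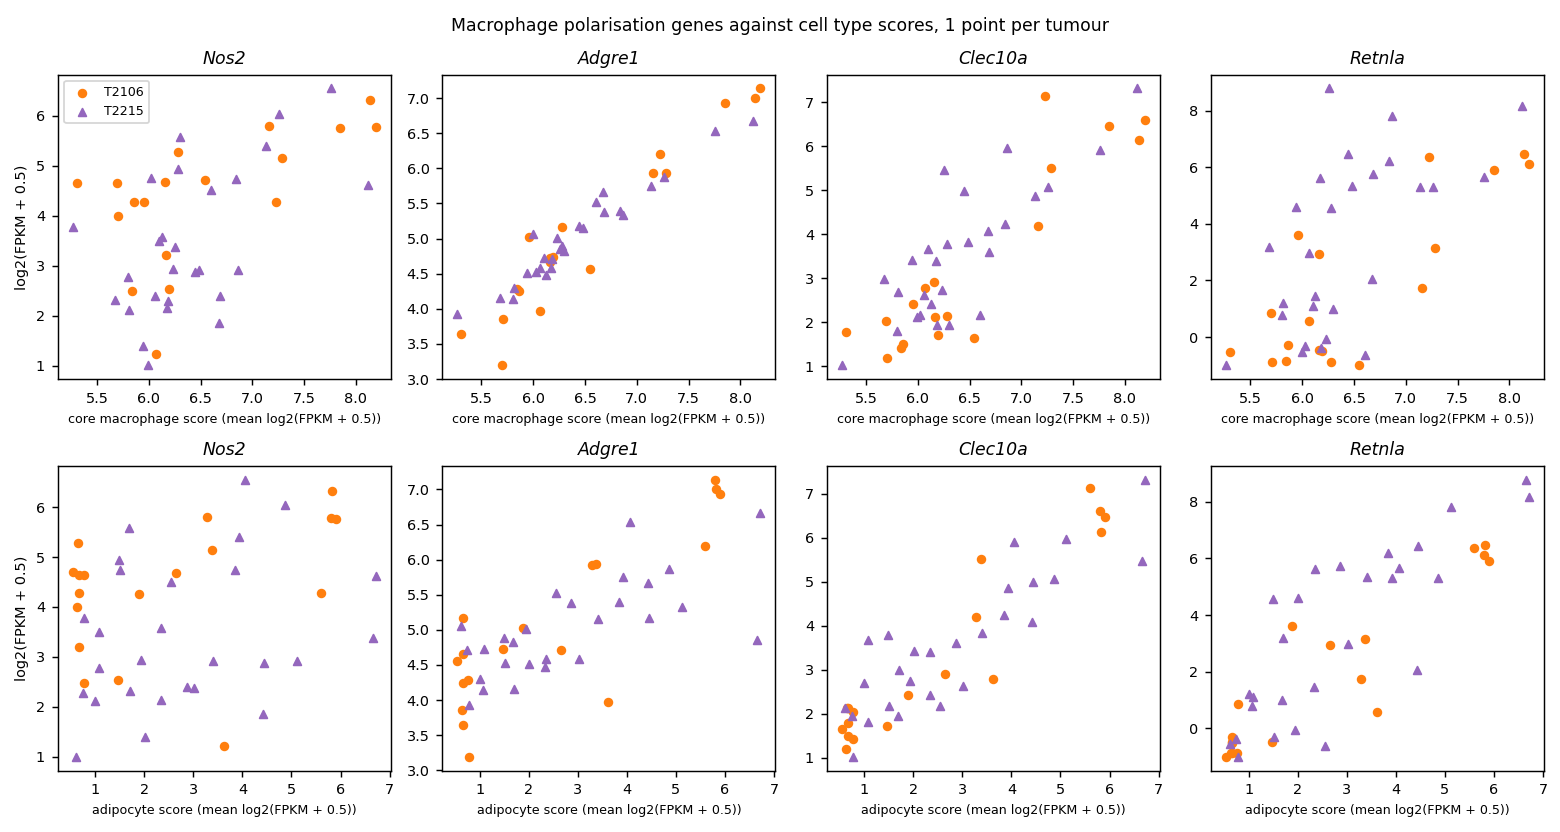
Log2(FPKM + 0.5) of Nos2, Adgre1, Clec10a and Retnla per tumour against the core macrophage score (top) and the adipocyte score (bottom). Orange circles are T2106 tumours and purple triangles T2215 tumours, from tables normalised separately. Adgre1 rises with the macrophage score, and Clec10a and Retnla with the adipocyte score. Most of the 10 genes were related to both scores in T2215.

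For each gene, the other genes whose level across tumours was most alike were named by the smaller of the Pearson correlations over the 18 T2106 and the 27 T2215 tumours, among 13018 eligible genes. Correlations are descriptions across tumours that differ in tissue make-up. Nos2 was most like Glrx, a redox enzyme (0.93 and 0.92), Adam8 (0.92 and 0.92) and Gla (0.92 and 0.92), and Arg1 most like the lactate transporter Slc16a3 (0.92 and 0.89), Egln3 (0.87 and 0.87) and Hyal1 (0.83 and 0.84). Of the secreted proteins, Retnla was most like elastin, Eln (0.89 and 0.89), Prg4 (0.90 and 0.87) and Clec10a (0.92 and 0.87), and Chil3 most like Arhgef37 (0.89 and 0.90), Gpr176 (0.92 and 0.88) and Prickle1 (0.89 and 0.88).

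Among receptors, Mrc1 was most like F13a1 (0.95 and 0.94), Lyve1 (0.94 and 0.92) and Atp6v0a1 (0.91 and 0.91), and Mgl2 like Rgs18 (0.87 and 0.83), Mrc1 (0.90 and 0.82) and F13a1 (0.92 and 0.82). Clec10a was nearest to Steap3 (0.98 and 0.95), Gpx3 (0.96 and 0.95) and Efemp1 (0.99 and 0.95), and Folr2 to Pltp, a lipid transfer protein (0.99 and 0.96), Trpv4 (0.97 and 0.96) and Steap3 (0.98 and 0.96). For Cd163 the nearest were the collagen gene Col6a2 (0.97 and 0.95), Rnase4 (0.94 and 0.94) and Stard8 (0.95 and 0.94), and for Adgre1 the kinase genes Lyn (0.97 and 0.97) and Pik3cd (0.97 and 0.96) and Arhgap30 (0.98 and 0.96).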

How the data were processed

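RNA of 45 tumours was sequenced (paired-end, MGISEQ-2000RS); only RNA above a quality limit was used, per the labels' protocols. The deposited tables hold log2 FPKM per gene, made by the authors; STAR, Bowtie, Trimmomatic, FastQC, mm10, hg19 and GRCh37 are named without role or version in the submitters' processing notes, while no program for the FPKM step is given in the sources used here. Values were returned to FPKM and fitted as log2(FPKM + 0.5) with limma 3.58.1 in R 4.3.3 (mean-variance trend), all groups of an experiment together, over 15070 (T2106) or 14914 (T2215) genes with at least 0.5 FPKM in at least 3 libraries, with Benjamini-Hochberg adjustment over those genes and a threshold of 0.05. There were 22 comparisons. The depth is unknown, so no count model or interval of counts was possible, and the number of tumours limits the precision. Relations used 100000 permutations. The fit was tested on simulated data. The genes, the 16 gene lists and the comparisons in which a gene's change is printed were chosen with earlier results of these data known. Named genes were the 10, a panel of further macrophage and cytokine genes, up to 4 genes per list with the smallest p, and the 3 most alike genes. Alternatives covered the pseudocount, the filter, the groups fitted, library centring, the replicate block, leaving out each tumour, and 2 cell scores as covariates; leaving out 4 libraries with muscle or skin genes was added after seeing the data.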

Additional observations from a re-analysis of the deposited data

How the results depend on the processing

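In T2106, the number of the 10 genes called for serplulimab with HLX53 at 10 mg/kg was 9 against vehicle, 7 against HLX53 and 7 against pembrolizumab with tiragolumab. With the adipocyte score or the core macrophage score as covariate it was 0 in all 3, and without a filter on low values 5 against vehicle and 3 against HLX53. Against serplulimab it rose from 0 to 1 with only the groups compared fitted and to 8 without the libraries of high muscle or skin score; against the 5 mg/kg pair it rose from 0 to 8 without those libraries. For the 5 mg/kg pair against vehicle the 1 call became 0 without a filter, with only the groups compared fitted, or without those libraries, and for serplulimab against vehicle 0 became 1 without them. Leaving out single tumours gave 4 to 9 (vehicle), 2 to 8 (HLX53), 7 to 7 (pembrolizumab with tiragolumab), 0 to 5 (serplulimab) and 0 to 8 (5 mg/kg pair) for the 10 mg/kg pair, 0 to 7 for the 5 mg/kg pair against vehicle, and 0 to 1 for T2215 serplulimab against vehicle, where the 1 came without serplulimab replicate 2. Changes of the 10 mg/kg pair that turned sign with the adipocyte score were, against vehicle, Mrc1 −0.26 and Chil3 −0.45, against HLX53 Mrc1 −0.51, Chil3 −1.10, Cd163 −0.16, Mgl2 −0.39, Folr2 −0.037 and Adgre1 −0.76, and against pembrolizumab with tiragolumab Mrc1 −0.070 and Chil3 −1.46. With the macrophage score they were Mrc1 −0.24 and Chil3 −0.63 against vehicle, Nos2 −0.17 and Chil3 −0.17 against HLX53, and Nos2 −0.59, Arg1 −0.65 and Chil3 −1.46 against pembrolizumab with tiragolumab. The cause was not tested. Replicate numbers did not pair the tumours (mean correlation of same-numbered deviations −0.0203 over 45 pairs in T2106 and −0.0229 over 108 in T2215; 5 of 18 and 4 of 27 tumours correlated best with their own number). With the replicate block the counts were 9 against vehicle, 6 against HLX53 (Adgre1 adjusted p = 0.059) and 7 against pembrolizumab with tiragolumab. Fitting only the groups compared was not possible for the PD-1 and TIGIT arm comparisons, which use all groups. Other pseudocounts and centring each library left every count within 1.5 times its value. The share of all genes called in each refit is not printed here, so the counts cannot be set against it. The depth is unknown, so no limit from counting could be given.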

Other observations

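The effect of the same treatment against vehicle was compared between T2106 and T2215 for the 10 genes and the 4 treatments both experiments held. The 40 tests used exact relabelling of treated and vehicle tumours within each experiment. Their p-values therefore assume no treatment effect in either experiment and do not test for equal effects. After adjustment 0 of the 40 passed, and 3 had an unadjusted p under 0.05, all for pembrolizumab with tiragolumab. Mrc1 had a difference from vehicle of −0.77 in T2106 and of 0.72 in T2215 (log2 scale, exact p = 0.005, the smallest possible among 400 relabellings, adjusted 0.2). Mgl2 had −0.69 and 1.89 (exact p = 0.015, adjusted 0.3), and Nos2 had 2.22 and −0.32 (exact p = 0.03, adjusted 0.4). Among the vehicle tumours Retnla had 0.0505, 0.988 and 0.219 FPKM in T2106 and 3.64, 1.66 and 0.454 in T2215, and Cd163 had 0.511, 5.89 and 2.30 and 15.3, 9.51 and 5.55, and the experiments overlapped for both genes, in tables normalised separately.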
